A study of Mus musculus with 15 samples.

Results

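The 8 genes described here were grouped as the interferon-related branch of the PARP family and its partners: Parp8, Parp9, Parp10, Parp11, Parp12, Parp14, Dtx3l and Zc3hav1 (also called Parp13). Their RNA was followed in untreated tumors and in tumors given intratumoral poly(I:C) and harvested up to day 7. The genes were chosen by name, with earlier results of these data known, and the group name is a label and not a result for each gene. All 8 were found among the 32544 entries of the deposited count table and among the 15494 genes that passed the filter on low counts. The lowest value of any of them in any tumor was 28.1 CPM (counts relative to a library total of 1e6, with TMM factors), so none passed the filter only through a group in which it was high. The tumors were subcutaneous WEHI-164 fibrosarcomas, a mouse connective tissue tumor line, grown in wild-type female BALB/c mice, and the study followed how they responded to this agonist of RNA sensing. The day 0 group was 3 untreated tumors. The day 1, day 3, day 5 and day 7 groups were 3 tumors each, injected daily with poly(I:C), a synthetic mimic of viral double-stranded RNA and an agonist of Toll-like receptor 3, at 1 µg in 25 µL for a planned 6 doses per the labels. A legend in the study's supplement names a larger amount per day than the labels do, which leaves the dose open, and it describes vehicle-treated controls where the labels say untreated. Mouse ages are not given in the labels used here, every tumor derives from 1 cell line and no untreated tumor of a later day is among the samples used here, so time in the mouse and treatment cannot be told apart. The paper counts harvest days from the first dose, so day 7 fell after the planned 6 daily doses. Harvest day, number of doses and time since the last dose therefore cannot be told apart either.

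PARP proteins transfer ADP-ribose from NAD+ onto proteins or nucleic acids. Most members of this branch attach a single ADP-ribose unit rather than a chain, and several are induced by type I interferon through interferon-stimulated response elements, short DNA motifs in promoters. Parp9 carries macrodomains that read ADP-ribose and works bound to Dtx3l, a Deltex-type ubiquitin ligase. Zc3hav1, the zinc-finger antiviral protein ZAP, has lost catalytic activity and binds CpG-rich viral RNA.

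The genes are placed unevenly in the genome (GENCODE M21, build GRCm38). Parp9 (ENSMUSG00000022906.15, chr16:35938470-35972605, plus strand) and Dtx3l (ENSMUSG00000049502.17, chr16:35926511-35939151, minus strand) lie head to head and overlap, with annotated gene starts 681 bases apart. Parp14 (ENSMUSG00000034422.14, chr16:35832874-35871544, minus strand) starts 66.93 kb from Parp9 on the same chromosome. Parp12 (ENSMUSG00000038507.6, chr6:39086410-39118349, minus strand) and Zc3hav1 (ENSMUSG00000029826.14, chr6:38305286-38354603, minus strand) start 763.75 kb apart, and Parp11 (ENSMUSG00000037997.12, chr6:127446840-127494261, plus strand) lies far from both on chromosome 6. Parp10 (ENSMUSG00000063268.12, chr15:76231174-76243441, minus strand) and Parp8 (ENSMUSG00000021725.9, chr13:116854820-117025537, minus strand) have no other member on their chromosomes.

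Exons of Parp9 and Dtx3l share 458 bases on opposite strands, which is 9.40% of the Parp9 and 8.0% of the Dtx3l exon length, and the strand setting of the counting is not given in the sources used here, so reads from the shared bases cannot be assigned with certainty. Exons of Parp10 share 205 bases with Plec on the same strand, 4.80% of the Parp10 length.

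Promoter windows of 300 bases, 250 before the transcript start and 50 from it onward, were taken from the RefSeq table (GRCm38.p6) for 5 members (not Parp9, Parp10 or Parp14), of which Parp11 had 2 windows. Both strands were searched for GAAANNGAA, a core of the interferon-stimulated response element. Of all 32851 windows, 8.56% held this motif. Among the 6 member windows, the first Parp11 window held it, and the windows of Parp8, Parp12, Dtx3l and Zc3hav1 and the second Parp11 window did not. That match is a description of letters in these windows and is no evidence of binding. A pair of windows is printed here because of that match and because of the shared start region of Parp9 and Dtx3l. In the Parp11 window (chr6:127446590-127446889, plus strand) the capitals mark the response element match on the minus strand at bases 208 to 216 of the window, 43 to 35 bases before the transcript start. In the Dtx3l window (chr16:35938978-35939277, minus strand) the capitals mark the 17 bases from the Dtx3l start at 35939027 to the start of the transcript Parp9-201 at 35939011 on the other strand, and 4 of the 7 annotated Parp9 transcripts start within this window.
Parp11: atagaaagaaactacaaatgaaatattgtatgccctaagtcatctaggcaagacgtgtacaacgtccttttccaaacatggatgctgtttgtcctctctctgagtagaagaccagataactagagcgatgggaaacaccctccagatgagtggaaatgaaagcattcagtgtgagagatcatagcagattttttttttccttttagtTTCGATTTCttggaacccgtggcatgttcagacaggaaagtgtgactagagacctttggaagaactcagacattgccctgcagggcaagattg
Dtx3l: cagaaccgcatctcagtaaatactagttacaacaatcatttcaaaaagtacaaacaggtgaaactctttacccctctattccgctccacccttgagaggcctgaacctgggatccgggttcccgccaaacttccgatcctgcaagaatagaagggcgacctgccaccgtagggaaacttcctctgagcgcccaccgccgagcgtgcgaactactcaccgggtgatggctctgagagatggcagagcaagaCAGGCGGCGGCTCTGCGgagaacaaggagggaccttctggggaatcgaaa

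Sequencing gave 23713090 to 31913106 counts per tumor, and the lowest count of any member in any tumor was 677. Day 3 replicate 1 stood apart, with a mean correlation of 0.884 with the remaining 14, whose own values were all at least 0.956. Vimentin, collagens and other mesenchymal markers summed to between 8827 and 14350 CPM in 14 tumors and to 29014 CPM in day 3 replicate 1, while the 4 epithelial markers summed to at most 30.7 CPM and Krt5 was at 0 in 11 of 15 tumors. No gene of the 15494 tested had an adjusted p under 0.05 in the edgeR quasi-likelihood test in any of 5 comparisons, which are each treated day against day 0 and day 7 against day 3 (0.0% of genes called), so no member was called by that test. Members are therefore described by level, by unadjusted p and by overlap of the groups, each beside the share of all tested genes past the same mark. The comparisons with day 0 share the same 3 untreated tumors.

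The members differed in level before treatment. Per kilobase of exon, Parp12, a zinc-finger PARP, was highest in untreated tumors at 27.3 ± 2.03 CPM per kb (SD, n = 3), followed by Zc3hav1 at 22.7 ± 0.551 and Parp14 at 20.4 ± 1.27 CPM per kb. Parp9 at 19.0 ± 2.41, Dtx3l at 17.5 ± 1.39 and Parp10 at 16.1 ± 0.658 CPM per kb came next. Parp8 at 4.78 ± 0.180 and Parp11 at 4.74 ± 0.813 CPM per kb were lowest. Neighbours in this order from Parp14 down to Parp10 overlapped in range, as did Parp8 and Parp11, whereas Parp12, Zc3hav1 and Parp14 were separate from each other and Parp10 was separate from Parp8.

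Of the 8 members, 6, all but Zc3hav1 and Parp8, were higher on days 1 and 3 than in untreated tumors at an edgeR unadjusted p under 0.05. At that mark 2.18% of all tested genes were higher on day 1 and 18.3% on day 3. Fold changes of the 6 were 1.55 to 1.89, and the 6 overlapped the untreated range on day 7. The 3 macrodomain or macrodomain-partner genes on chromosome 16 had similar profiles. Parp9 measured 82.8, 106 and 89.2 CPM in the 3 untreated tumors, 120, 131 and 189 CPM on day 1, 165, 166 and 146 CPM on day 3, 136, 133 and 85.5 CPM on day 5, and 90.3, 97.5 and 68.3 CPM on day 7. All 6 tumors of days 1 and 3 lay above every untreated tumor, and days 5 and 7 overlapped the untreated range. The log2 fold change of Parp9 was 0.66 ± 0.21 on day 1 (SE, edgeR quasi-likelihood test, unadjusted p = 0.00753, adjusted p = 1.00) and 0.78 ± 0.21 on day 3 (unadjusted p = 0.00269, adjusted p = 0.115).

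Dtx3l, the ligase partner of Parp9, measured 92.8, 109 and 98.8 CPM untreated, 124, 158 and 200 CPM on day 1, 177, 164 and 150 CPM on day 3, 133, 130 and 88.9 CPM on day 5, and 69.2, 104 and 71.5 CPM on day 7. Replicates 1 and 3 of day 7 were below every untreated tumor and replicate 2 lay among them. The log2 fold change was 0.68 ± 0.20 on day 1 (edgeR unadjusted p = 0.00525, adjusted p = 0.992) and 0.71 ± 0.20 on day 3 (unadjusted p = 0.00419, adjusted p = 0.115). Parp14, which has macrodomains of its own and transfers mono-ADP-ribose, measured 179, 202 and 189 CPM untreated, 250, 282 and 393 CPM on day 1, 314, 337 and 297 CPM on day 3, 256, 255 and 153 CPM on day 5, and 140, 197 and 137 CPM on day 7. Day 3 was the tightest of the treated groups and did not overlap day 0, day 5 or day 7. The log2 fold change of Parp14 was 0.70 ± 0.22 on day 1 (edgeR unadjusted p = 0.00659, adjusted p = 1.00) and 0.73 ± 0.22 on day 3 (unadjusted p = 0.00494, adjusted p = 0.115).

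Parp10, Parp11 and Parp12, mono-ADP-ribosyltransferases without macrodomains, had the largest day 1 fold changes. Parp10, which modifies proteins including itself, measured 66.4, 71.9 and 68.1 CPM untreated, 89.9, 112 and 182 CPM on day 1, 87.8, 141 and 102 CPM on day 3, 103, 97.5 and 62.9 CPM on day 5, and 54.6, 82.7 and 61.2 CPM on day 7. Its untreated tumors were close together and its day 1 tumors the most spread of its groups, and the log2 fold change was 0.90 ± 0.27 on day 1 (edgeR unadjusted p = 0.00583, adjusted p = 1.00) and 0.68 ± 0.27 on day 3 (unadjusted p = 0.0259, adjusted p = 0.134). Without day 1 replicate 3 the day 1 value of Parp10 was 0.56. Parp11, which carries a WWE domain, measured 28.1, 39.4 and 32.4 CPM untreated, 45.1, 58.7 and 83.3 CPM on day 1, 57.7, 69.4 and 57.9 CPM on day 3, 54.1, 48.6 and 35.7 CPM on day 5, and 34.7, 39.9 and 28.3 CPM on day 7. Its day 1 and day 3 tumors lay above all untreated tumors, with log2 fold changes of 0.90 ± 0.23 (edgeR unadjusted p = 0.00157, adjusted p = 0.641) and 0.89 ± 0.23 (unadjusted p = 0.00180, adjusted p = 0.115). Parp12, whose zinc fingers bind RNA, measured 99.7, 114 and 114 CPM untreated, 177, 161 and 279 CPM on day 1, 128, 216 and 163 CPM on day 3, 134, 150 and 112 CPM on day 5, and 96.1, 119 and 92.8 CPM on day 7. Its log2 fold change was 0.92 ± 0.22 on day 1 (edgeR unadjusted p = 0.00126, adjusted p = 0.641) and 0.63 ± 0.22 on day 3 (unadjusted p = 0.0136, adjusted p = 0.118). The day 1 value was the largest of the members, but within the SE of those of Parp10 and Parp11. Leaving out each tumor in turn, the lowest day 1 value was 0.637 for Parp12 and 0.642 for Parp11. On day 3, Parp10 and Parp12 leaned on replicate 2, without which their unadjusted p was 0.127 and 0.0815.

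Zc3hav1 and Parp8 were at no unadjusted p under 0.05 on day 1 or day 3. Zc3hav1 measured 151, 144 and 148 CPM untreated, 160, 159 and 195 CPM on day 1, 160, 177 and 169 CPM on day 3, 157, 156 and 136 CPM on day 5, and 123, 148 and 142 CPM on day 7. Every tumor of days 1 and 3 was above every untreated tumor, but the shift was small, at a log2 fold change of 0.21 ± 0.10 on day 1 (edgeR unadjusted p = 0.0618) and 0.19 ± 0.10 on day 3 (unadjusted p = 0.0905). The day 1 value of Zc3hav1 was 0.11 without day 1 replicate 3. The table sums transcripts to genes, so the long and short forms of ZAP cannot be told apart. Parp8, a mono-ADP-ribosyltransferase, measured 40.8, 44.0 and 42.7 CPM untreated, 41.0, 45.8 and 37.6 CPM on day 1, 61.2, 39.4 and 40.5 CPM on day 3, 51.5, 43.0 and 41.2 CPM on day 5, and 43.0, 39.4 and 36.6 CPM on day 7. Apart from day 3 replicate 1 at 61.2 CPM and day 5 replicate 1 at 51.5 CPM, its tumors lay between 36.6 and 45.8 CPM. The log2 fold change of Parp8 was -0.04 ± 0.16 on day 1 and 0.15 ± 0.16 on day 3 (edgeR unadjusted p = 0.822 and 0.370), and the day 3 value was -0.09 without day 3 replicate 1.

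**Figure D1:**
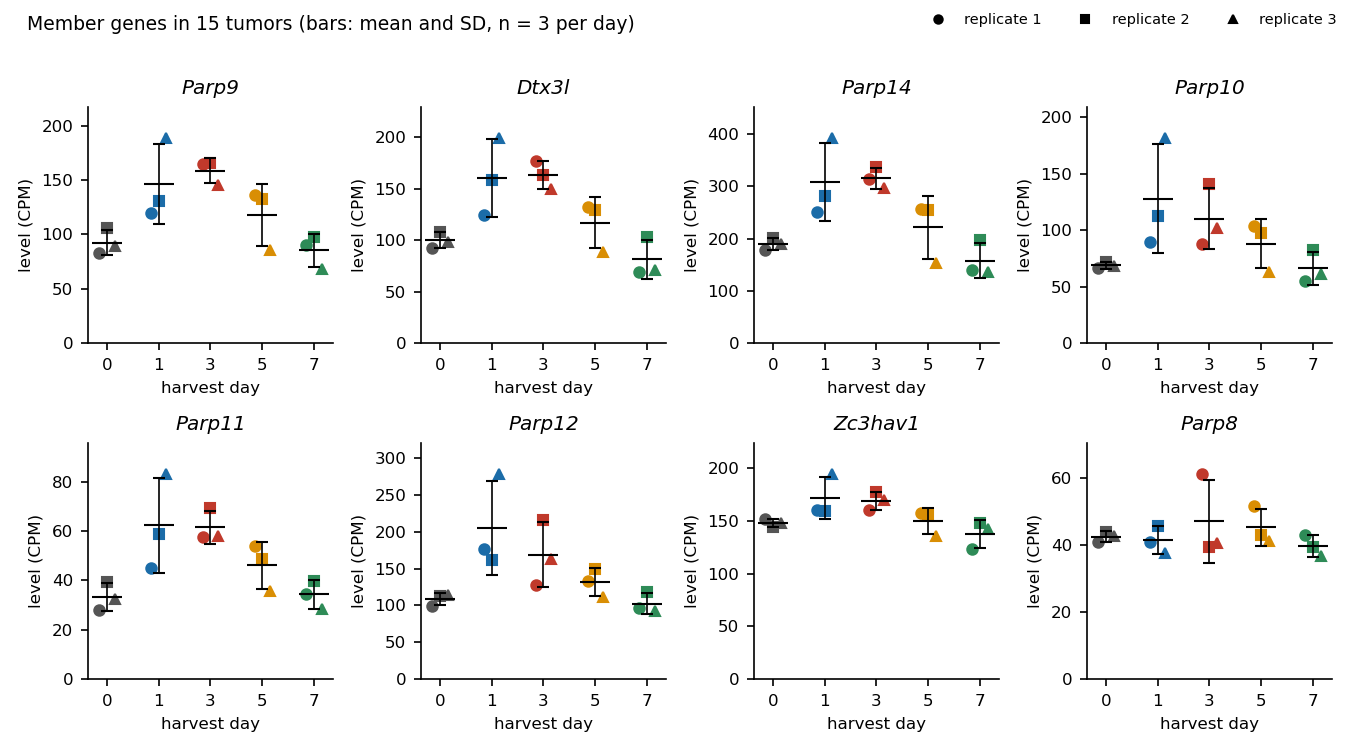
Level of each member in CPM (vertical axis, from 0, 1 panel per gene) by harvest day (horizontal axis), with 1 point per tumor, circles, squares and triangles for replicates 1, 2 and 3, and bars for the mean and SD of 3 tumors. In 7 genes, all but Parp8, the day 1 and day 3 points sit above the day 0 points, as in Parp14 with 250 to 393 CPM on day 1 and 179 to 202 CPM on day 0, while 13 tumors lie between 36.6 and 45.8 CPM for Parp8.

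Counted together, 6 of the 8 members were higher at an unadjusted p under 0.05 on day 1, while 2.18% of all tested genes were. Without day 1 replicate 3 the count was 5, while 0.815% of all genes were higher, as the log2 fold change of Parp9 was then 0.44 at an unadjusted p of 0.0508 by edgeR. On day 3 the same 6 were, while 18.3% of all genes were, so that comparison had a much higher background. Without day 3 replicate 1 the day 3 count was still 6 of 8 and the background was 6.52%. The 3 tumors of day 1 all lay above the 3 untreated tumors for 7 members, Zc3hav1 included, and for 5.76% of all genes. On day 3 the same separation held for 7 members and 19.4% of all genes. The median log2 fold change of the 8 members was 0.69 on day 1 and 0.70 on day 3, and that of all genes was 0.00 and -0.02. Among all 15494 genes, the day 1 log2 fold change of Parp12 ranked 343 from the top and that of Parp9, the lowest of the 6, ranked 620, whereas on day 3 the 6 ranked between 2553 (Parp11) and 3184 (Parp12).

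No member differed between day 1 and day 3 at an unadjusted p under 0.05, while 18.4% of all genes did in either direction. The unadjusted p of the members in that comparison ranged from 0.221 to 0.941 and their log2 differences from -0.28 to 0.18. A joint edgeR test of the 4 treated days gave an unadjusted p under 0.05 for 7 members, all but Parp8, and for 16.2% of all genes, with adjusted p from 0.292 to 0.303 for the 7.

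**Figure D2:**
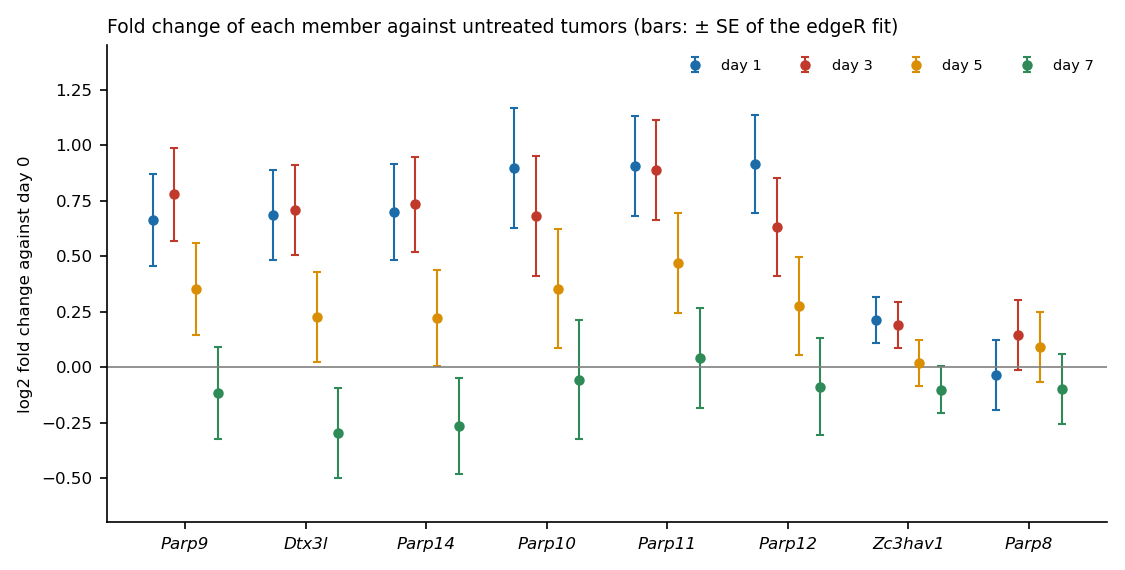
Log2 fold change of each member against day 0 (vertical axis) for days 1, 3, 5 and 7 (colors), with ± SE of the edgeR fit, which shares 1 estimate of spread over 15 tumors. In 6 genes the values lie between 0.63 and 0.92 on days 1 and 3, while Zc3hav1 and Parp8 stay at or below 0.21, and on day 7 no gene exceeds 0.04.

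By day 5 the members were closer to the untreated level. No member had an unadjusted p under 0.05 on day 5 in the edgeR test, and 1.41% of all genes were higher at that mark. DESeq2 put 1 member, Parp11, past an unadjusted p of 0.05 on that day (DESeq2 adjusted p = 0.775), while 389 of 15494 genes were higher at that mark by DESeq2. Log2 fold changes on day 5 ranged from 0.02 (Zc3hav1) to 0.47 (Parp11), with a median of 0.25. No member had its 3 day 5 tumors all above day 0, a separation found in 6.89% of all genes. Day 5 replicate 3 was the lowest of its day for all 8 members, for example at 85.5 CPM for Parp9 against 136 and 133 CPM in the other two tumors, and without that tumor 3 members (Parp9, Parp11 and Parp14) were higher at an unadjusted p under 0.05, as were 4.53% of all genes.

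On day 7, after the last planned dose, the members were at or slightly under the untreated level. Log2 fold changes ran from -0.30 (Dtx3l) to 0.04 (Parp11), no member was lower at an unadjusted p under 0.05 by edgeR or DESeq2, and 1.02% of all genes were lower by edgeR. Between day 3 and day 7 the difference was larger. Dtx3l had a log2 difference of -1.01 ± 0.20 (SE, edgeR unadjusted p = 0.000306, adjusted p = 0.0832), with a mean of 81.4 CPM on day 7 and 164 CPM on day 3. Parp14 had one of -0.998 ± 0.217 (edgeR adjusted p = 0.0832), Parp9 -0.90 ± 0.21 and Parp11 -0.85 ± 0.23. Parp10 at -0.74 ± 0.27, Parp12 at -0.72 ± 0.22 and Zc3hav1 at -0.29 ± 0.10 also had an unadjusted p under 0.05, and Parp8 at -0.25 ± 0.16 did not, with a value of -0.00193 without day 3 replicate 1.

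In all, 7 of the 8 members were lower on day 7 than on day 3 at an unadjusted p under 0.05, while 22.6% of all genes were, and without day 3 replicate 1 it was again 7 members, while 8.48% of all genes were. The 3 day 7 tumors lay below the 3 day 3 tumors for 7 members, and for 18.4% of all genes. With all tumors edgeR called 0 genes in this comparison. Without day 3 replicate 3 edgeR called 4 members lower at an adjusted p of 0.0493 (Dtx3l, Parp14, Parp9 and Parp11), and 10.1% of all genes. That fit kept day 3 replicate 1, the tumor least like the rest, and most other fits without a tumor called no gene here. The difference was spread over both steps. From day 3 to day 5, Dtx3l and Parp14 were lower at an unadjusted p under 0.05 (5.24% of all genes), and from day 5 to day 7, Dtx3l, Parp14 and Parp9 were (1.94% of all genes). The steps share the day 5 tumors and are not independent.

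DESeq2, run as an alternative, gave smaller p-values. It called Parp12 on day 1 (log2 fold change 0.92, DESeq2 adjusted p = 0.0301), where 0.239% of all genes were called higher. On day 3 it called 5 members, Parp11, Parp9, Dtx3l, Parp14 and Parp12, with DESeq2 adjusted p from 0.0123 to 0.0408, where 9.02% of all genes were called higher. Between day 3 and day 7 it called 7 members lower, all but Parp8, with DESeq2 adjusted p from 0.00319 to 0.0422, where 15% of all genes were called lower. No member passed the same mark by edgeR in these comparisons, so these calls depend on the tool.

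On day 1 the same tumor was highest for most members, whereas on day 3 the members differed in their order of tumors. Day 3 replicate 1, with the highest pan-leukocyte sum (2346 CPM), was the highest of its day for Dtx3l (177 CPM) and Parp8 (61.2 CPM). It was the lowest of its day for Parp10 (87.8 CPM), Parp11 (57.7 CPM), Parp12 (128 CPM) and Zc3hav1 (160 CPM). Day 1 replicate 3 was the highest tumor of all 15 for 7 members, as the map of values by tumor shows. That tumor also had the highest summed pan-leukocyte (994 CPM), macrophage (2156 CPM) and T cell (71.7 CPM) marker levels of its day. The other two day 1 tumors had pan-leukocyte sums of 397 and 493 CPM, beside 420 to 608 CPM in untreated tumors, and the 6 members above were higher in both than in any untreated tumor. On day 3 all 3 tumors had more of these markers than any untreated tumor, at 973 to 2346 CPM for the 5 pan-leukocyte genes, 2173 to 5417 CPM for the 8 macrophage genes (untreated, 1381 to 1433 CPM) and 75.8 to 285 CPM for the 8 T cell genes (untreated, 25.8 to 38.5 CPM).

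Counted by gene, 5 of 5 pan-leukocyte, 8 of 8 T cell and 7 of 8 macrophage markers were higher on day 3 at an unadjusted p under 0.05 by edgeR, as were 18.3% of all genes. On day 1 none of the 21 was higher and 1 was lower at that mark, the macrophage mannose receptor gene Mrc1 at a log2 fold change of -0.92 ± 0.34. Of all 15494 genes, 489 passed the mark on day 1, 337 of them higher. None of these 21 genes was at 0 in any tumor. By day 7 the sums were 300.5 to 744 CPM for pan-leukocyte, 892 to 1907 CPM for macrophage and 11.6 to 53.1 CPM for T cell genes. Day 3 replicate 1 also had 2160 CPM of skeletal muscle and 72.4 CPM of adipocyte markers, beside at most 137 and 14.3 CPM in any other tumor. The part of these cells in the members' levels was not tested, and in bulk tumors fewer cells of a type and less RNA per cell cannot be told apart.

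**Figure D3:**
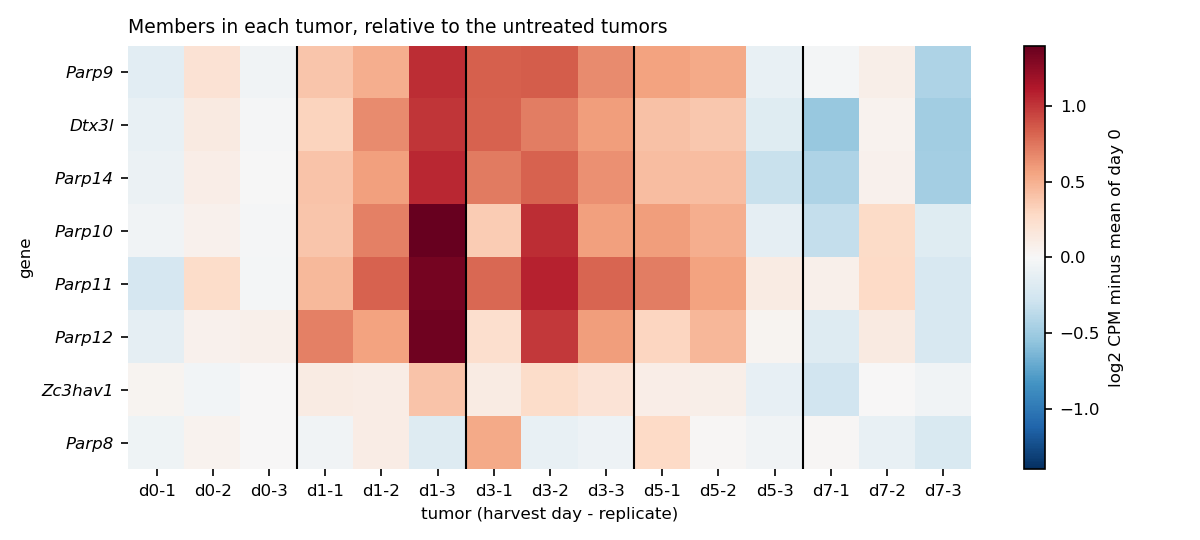
Log2 CPM of each member (rows) in each of 15 tumors (columns, harvest day and replicate), minus the mean of the 3 untreated tumors (color, red higher and blue lower). Day 1 replicate 3 is the deepest red column, the 6 upper genes are red in all day 1 and day 3 tumors, and Parp8 is red mainly in day 3 replicate 1.

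Parp9 and Dtx3l, which share a start region, kept close to each other. Over 15 tumors the Pearson r of their log2 CPM was 0.952 (two-sided permutation test, 100000 resamples, p = 2e-05, the smallest these resamples can give) and Spearman's rho was 0.936 (permutation p = 2e-05). The permutations ignored harvest day, so these p-values cannot tell a link within the pair from differences between days that both genes share. For that reason r was also taken of deviations from the day means, and that r was 0.868, with no test. Without the 2 tumors farthest from the median of Parp9, day 7 replicate 3 and day 1 replicate 3, r was 0.923. The Parp9 to Dtx3l ratio of CPM lay between 0.827 and 1.03 in 14 tumors, with 1.31 in day 7 replicate 1. This was the only pair tested, and reads from the 458 exon bases that both genes share cannot be assigned with certainty.

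**Figure D4:**
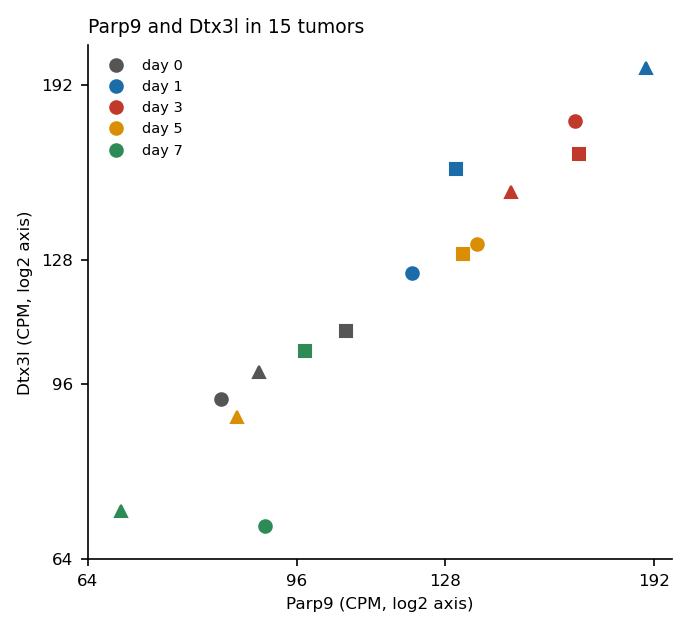
Dtx3l against Parp9 in CPM, both on log2 axes, with 1 point per tumor, colors for the harvest day and circles, squares and triangles for replicates 1, 2 and 3. The points lie along a line from 68.3 and 71.5 CPM (day 7 replicate 3) to 189 and 200 CPM (day 1 replicate 3), with day 7 replicate 1 below it.

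Parp9 was not the gene closest to Dtx3l, however. Over the 15 tumors, which share the harvest days and so all that moved with them, Dtx3l and Parp14 had the highest Pearson r of all genes with each other (r = 0.987, rho = 0.989), and Parp9 ranked 12 for Dtx3l among 15493 genes. The 6 members had pairwise r from 0.850 (Parp12 and Dtx3l) to 0.987 over 15 pairs. Zc3hav1 had r from 0.817 to 0.932 with the 6 despite its small range, and Parp8 had r from -0.14 to 0.33.

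The genes outside the members whose pattern was most like each of the 6 are given as descriptions with no test. For Parp9 they were Irf9 (r = 0.980, rho = 0.975), Trim21 (r = 0.979) and Gbp9 (r = 0.969), and for Dtx3l Gbp9 (r = 0.973), Irf9 (r = 0.973) and Gm5970 (r = 0.964). Irf9 is a transcription factor of interferon signalling, and Stat2, which binds Irf9, led the list of Parp14 (r = 0.981, rho = 0.986), before Zbp1 (r = 0.975) and Pml (r = 0.975). Parp10 was most like Ogfr (r = 0.986, rho = 0.993), Stat2 (r = 0.974) and Ifi35 (r = 0.968). Parp11 was most like Ly6a (r = 0.987, rho = 0.957), Ly6c1 (r = 0.977) and Zbp1 (r = 0.974), and Parp12 most like Bst2 (r = 0.982, rho = 0.954), Ifi35 (r = 0.969) and Adar (r = 0.969), the double-stranded RNA editing enzyme.

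The lists differed for the other two members. Zc3hav1 was most like Pitpnm1 (r = 0.949, rho = 0.932), Rnf213 (r = 0.945) and Mov10 (r = 0.945), an RNA helicase. Parp8 was most like Arl5a (r = 0.944, rho = 0.829), Cped1 (r = 0.934) and Abca8a (r = 0.933), and none of these is among the genes closest to the other members.

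The remaining PARP genes had log2 fold changes below those of the 6 members on both days, and the difference was not tested. Of 9 tested, 0 were at an unadjusted p under 0.05 on day 1, with log2 fold changes from -0.09 to 0.19 and a median of -0.02. On day 3, 3 were lower at that mark and 0 higher: Tnks at -0.64 ± 0.23 (edgeR adjusted p = 0.120), Tiparp at -0.55 ± 0.25 (adjusted p = 0.164) and Tnks2 at -0.35 ± 0.14 (adjusted p = 0.139). Of all 15494 genes, 4654 passed that mark on day 3, and 2835 of these were higher and the rest lower. On day 3 Tnks lay at 71.9 to 136 CPM, Tiparp at 41.5 to 89.2 CPM and Tnks2 at 142 to 166 CPM. Untreated tumors lay at 154 to 159, 89.0 to 111 and 187 to 203 CPM in the same order. Tnks and Tnks2 are the tankyrases, and Tiparp (Parp7) is a target of the aryl hydrocarbon receptor. Parp3, a DNA repair PARP, had the highest day 3 value of the 9 at 0.17 ± 0.19. Parp1 and Parp2, which build poly-ADP-ribose at DNA breaks, were at -0.12 ± 0.17 and -0.09 ± 0.09.

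Among the cofactors and relatives of ZAP, Trim25, the ubiquitin ligase that ZAP depends on, was at 0.60 ± 0.19 (log2 fold change) on day 1 (edgeR unadjusted p = 0.00679) and 0.45 ± 0.19 on day 3 (unadjusted p = 0.0306). N4bp1, a ribonuclease related to the ZAP cofactor Khnyn, was at 0.27 ± 0.15 on day 1 and 0.44 ± 0.16 on day 3 (unadjusted p = 0.0150), and Khnyn itself at 0.09 ± 0.13 and 0.10 ± 0.13. Zc3hav1l was the lowest of the 4 on day 3, at -0.52 ± 0.24 (unadjusted p = 0.0515). Both Trim25 values were therefore larger than those of Zc3hav1 itself, a difference that was not tested. The Trim25 promoter window held 1 response element match, on the minus strand 9 to 1 bases before the transcript start. It was the only window outside the members that was looked at by gene, and 8.56% of all windows held this motif. The match is no evidence of binding and does not set Trim25 apart from the other related genes.

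Of the 5 tested enzymes that remove ADP-ribose, 0 were at an unadjusted p under 0.05 on day 1 and 1 was on day 3, Macrod1 at 0.57 ± 0.26 (edgeR adjusted p = 0.159), with 8.74 CPM in 1 tumor and 3.90 and 4.55 CPM in the others. Macrod2 had the largest day 3 value, at 1.06 ± 0.71, from levels of at most 1.17 CPM, and Parg the lowest, at -0.18 ± 0.10. Among the 4 other Deltex ligases, 0 were at that mark on day 1. On day 3, Dtx2 was at 0.41 ± 0.14 (unadjusted p = 0.0128), Dtx1 at 1.64 ± 0.97 from at most 1.77 CPM, and Dtx4 lowest at -0.10 ± 0.13.

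**Figure D5:**
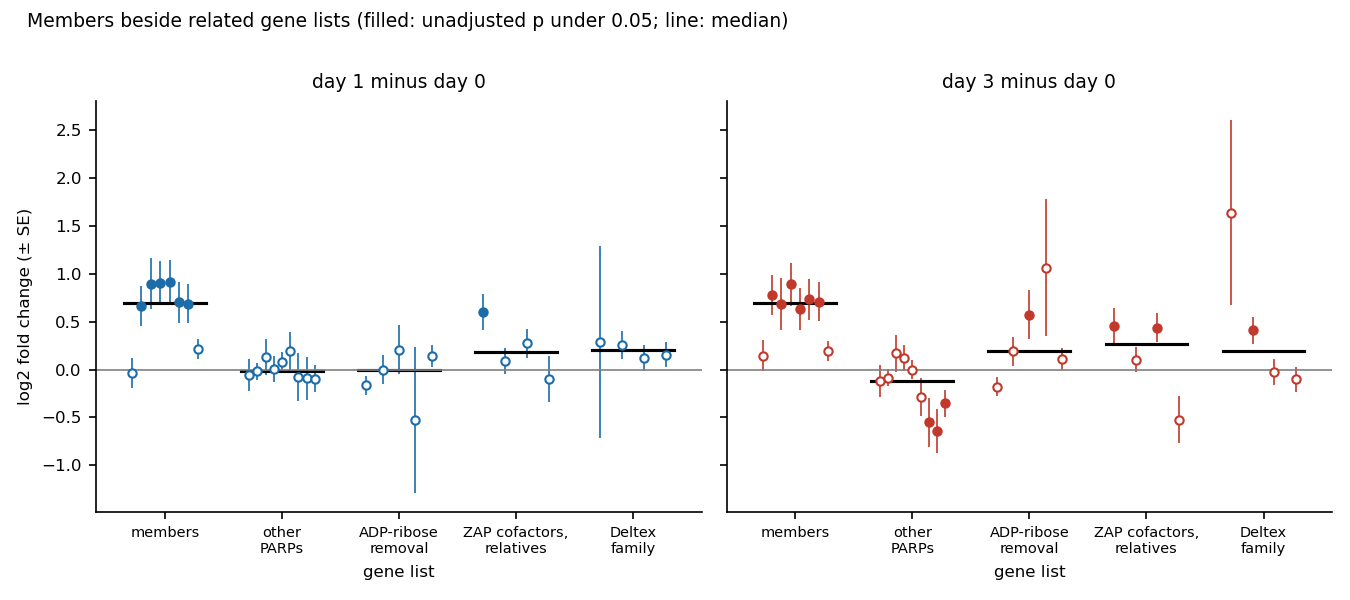
Log2 fold change with ± SE (vertical axis) of the members and of 4 related gene lists (horizontal axis) on day 1 and day 3 against day 0. Filled points have an unadjusted p under 0.05 and black lines are medians, which are 0.69 and 0.70 for the members and -0.02 and -0.12 for the other PARP genes.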

How the data were processed

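The authors sequenced poly(A) RNA of 15 tumors as 100 base single-end reads, quantified transcripts with kallisto and summed them to genes with tximport on mm10 (GRCm38 per the labels). The deposited values are estimated counts of each gene, already whole, with 1 column per tumor and no pooling. The transcript set and strand setting are not given in the sources used here. Kallisto divides reads among similar transcripts, so counts of overlapping genes are uncertain.

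A date-like entry (at most 0.0268% of a tumor's counts) was left out. A count of 3, the limit that a count of 0 allows, was 0.0940 to 0.127 CPM, for counting error only. edgeR 4.0.16 (R 4.3.3) tested genes over a CPM of 0.366 in 3 or more tumors, with TMM scaling, 1 quasi-likelihood model of the 15 tumors by harvest day, a two-sided F test and Benjamini-Hochberg adjustment over 15494 genes. The study lists DESeq2 among its software and does not give the model used for this time course. The SE is the log2 fold change divided by the square root of F. DESeq2 1.42.0, limma-voom (limma 3.58.1), other scalings, no filter, only the days compared, a replicate block and leaving out each tumor were alternatives. scipy 1.17.1 gave the permutation tests.

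The members and lists were chosen with earlier results of these data known. Outside the members, the text names in each related list the genes with the largest and smallest day 3 log2 fold change and those at an unadjusted p under 0.05 on day 1 or 3, plus Parp1, Parp2, Khnyn and Mrc1, chosen after their values were seen; likeness lists hold the 3 genes with the highest r. Marker lists are given by sums and counts. Labels do not state separate experiments, and the edgeR and DESeq2 p-values set a difference against the spread between these tumors only.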

Additional observations from a re-analysis of the deposited data

How the results depend on the processing

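The median member log2 fold change kept its direction under every alternative in all 5 comparisons, and r between Parp9 and Dtx3l stayed positive with library totals (0.951) and without each tumor (0.939 to 0.982), both chosen after seeing the data. Leaving out each tumor in turn gave, for the treated days against day 0 in order and then for day 7 against day 3, 5 to 7, 4 to 6, 0 to 3, 0 to 1 and 5 to 7 members at an unadjusted p under 0.05, where 0.815% to 3.64%, 6.52% to 22.6% and 0.428% to 4.53% of all genes were higher on days 1, 3 and 5 and 0.570% to 1.94% and 8.48% to 25.2% were lower on day 7 and between day 3 and day 7, with member medians of 0.49 to 0.83, 0.58 to 0.75, 0.16 to 0.41, -0.22 to -0.03 and -0.95 to -0.63. The 3 on day 5 came without day 5 replicate 3, and the 1 on day 7 was Dtx3l (-0.51) without day 7 replicate 2. Parp11 alone passed on day 5 without day 0 replicate 2 (0.61), or without replicate 1 (0.47) or 3 (0.48) of day 1. The day 5 count was 1 by DESeq2 and 2 with only the days compared, where 389 of 15494 and 942 of 14743 genes were higher at that mark. Zc3hav1 passed on day 1 without replicate 1 or 2 of that day, day 3 replicate 1 or day 7 replicate 1. Parp10 missed that mark on day 3 without day 3 replicate 2 or replicate 1 or 3 of day 0, and between day 3 and day 7 without day 3 replicate 2 or replicate 1 or 3 of day 7. Its day 3 log2 fold change was 0.47 without day 3 replicate 2, but 0.66 and 0.67 without replicate 1 or 3 of day 0, close to 0.68 with all tumors. Parp12 missed it on day 3 without day 3 replicate 2, and Zc3hav1 between day 3 and day 7 without day 3 replicate 2 or day 7 replicate 1. The cause was not tested.

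Signs turned in 9 single-gene values, all small. Over the fits without a tumor, Parp8 ranged from -0.113 to 0.0314 on day 1, with the highest value without day 1 replicate 3, from -0.0860 (without day 3 replicate 1) to 0.265 on day 3 and from -0.0134 (without day 5 replicate 1) to 0.153 on day 5. Zc3hav1 ranged from -0.0172 to 0.0851 on day 5, below 0 without replicate 1 or 2 of that day. On day 7, Parp11 ranged from -0.0813 to 0.181, below 0 without day 0 replicate 1 or day 7 replicate 2, Parp10 from -0.249 to 0.0647, above 0 without day 7 replicate 1, and Parp9 from -0.224 to 0.0203, above 0 without day 7 replicate 3.

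Without day 3 replicate 3, edgeR called 4 members between day 3 and day 7, Dtx3l, Parp14, Parp9 and Parp11 (adjusted p = 0.0493), and 10.1% of all genes were called lower in that fit. That fit called 2104 genes in all between day 3 and day 7 and 2 on day 3, and the fit without day 1 replicate 3 called 58 and 61. The fit without day 7 replicate 2 called 1 between day 3 and day 7, and the remaining fits without a tumor called 0. With all tumors edgeR called 0 genes in each comparison, while DESeq2 called 40, 2003, 10, 5 and 3232 in the same order. With only the days compared, edgeR called 1 gene on day 5 and 1 on day 7. Genes at an unadjusted p under 0.05 by edgeR numbered 489, 4654, 744, 320 and 5502. The replicate block left the member counts at 6, 6, 0, 0 and 7, with medians of 0.70, 0.69, 0.25, -0.11 and -0.79, and changed no call. In that fit 412, 3834, 580, 267 and 4731 of 15494 genes were at an unadjusted p under 0.05 by edgeR. Of these, 276, 2123, 137, 129 and 1842 were higher. Replicate numbers did not pair the tumors: 30 pairs with the same number had correlations of deviations from -0.62 to 0.51, and 4 of 15 tumors correlated best with their own number. Each group has 3 tumors, and fits without a tumor rest on 2 in that group.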
